A study of Homo sapiens with 4 samples.

Results

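The miRNAs hsa-miR-105-5p and hsa-miR-767-5p (miR-105-5p and miR-767-5p below) were followed in PC-3 cells with and without apelin. They were chosen by name, as every entry of the deposited table called miR-105 or miR-767, and 2 of its 1096 entries met this rule (516 named from a catalogue and 580 predicted). Both are 5p arms, cut from the 5′ side of their hairpins. PC-3 is an established line from a human prostate cancer, and apelin is a secreted peptide that signals through the APJ receptor. Control cells had no treatment (2 libraries, controls 1 and 2), and apelin cells were given the peptide at 10 µg/mL for 24 h (2 libraries, apelin 1 and 2). All 4 libraries came from this 1 line. The labels name no vehicle for the controls and do not state whether the 2 libraries of a group are separate cultures. A p-value here rests on 4 libraries only, and the spread between them may be technical.

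A miRNA guides an Argonaute protein to messenger RNAs through its seed, the bases near its 5′ end that pair with the target. Both miRNAs are cut from hairpins inside GABRA3, the gene of a subunit of the GABA-A receptor, a chloride channel of neurons. This locus is of the cancer-testis type: silent under DNA methylation in most adult tissues, active in the male germ line and switched on in some tumours. miR-105 is known for repressing TJP1 (ZO-1), a tight junction scaffold, when secreted by metastatic breast cancer cells. miR-767 is known for repressing TET1 and TET3, enzymes that oxidise methylated cytosine.

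The 3 hairpins lie on the minus strand of chromosome X within 2274 bases, from 152392219 to 152394492 (GRCh38, GENCODE 29). MIR105-1 spans 152392219 to 152392299, MIR767 spans 152393421 to 152393529 and MIR105-2 spans 152394412 to 152394492. All 3 sit in the intron between exons 1 and 2 of the full-length GABRA3 transcript. A shorter GABRA3 transcript starts at 152389497, so the hairpins lie 2722 to 4915 bases upstream of its start and outside it. The mature sequences (RefSeq, GRCh38.p14) are shown with the seed, bases 2 to 8, in capitals, since the seeds set which messages each can recognise.
miR-105-5p: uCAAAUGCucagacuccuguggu
miR-767-5p: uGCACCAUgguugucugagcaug

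The hairpins (RefSeq) are shown with the 5p mature miRNA in capitals, to show why reads of miR-105-5p cannot be traced to 1 copy.
MIR105-1: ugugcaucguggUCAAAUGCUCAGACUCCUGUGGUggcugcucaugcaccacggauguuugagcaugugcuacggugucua
MIR105-2: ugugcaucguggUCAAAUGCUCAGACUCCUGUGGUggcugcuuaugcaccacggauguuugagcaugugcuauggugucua
MIR767: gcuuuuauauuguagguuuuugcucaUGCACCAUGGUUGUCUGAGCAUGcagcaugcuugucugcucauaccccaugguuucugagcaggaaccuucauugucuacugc

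The miR-105 hairpins were identical at 79 of 81 bases, and miR-105-5p has the same sequence in each. MIR105-1 and MIR105-2 differed at C43U and C73U, counted from the 5′ end of the hairpin with the base of MIR105-1 first, both outside miR-105-5p (bases 13 to 35). The longest stretch common to MIR105-1 and MIR767 was 13 bases, UGCUCAUGCACCA. In MIR767 it spans bases 21 to 33 and so runs into miR-767-5p, which starts at base 27. In MIR105-1 it spans bases 39 to 51, downstream of miR-105-5p.

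Both miRNAs were present in every library, at middle to low abundance. The authors' TPM values are reads per 1000000 reads of the library, not divided by length. The libraries held 5322429 to 6014838 counts, and 3 counts, the upper limit that a count of 0 allows, are worth 0.499 to 0.564 TPM. Intervals on levels are exact 95% Poisson intervals and intervals on shares are exact 95% Clopper-Pearson intervals. The sources used here name no molecular identifiers, and intervals and floors cover counting error only.

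miR-105-5p stood at 55.7 TPM (335 counts) in control 1 and 60.6 TPM (343 counts) in control 2. With apelin it stood at 49.6 TPM (264 counts) in apelin 1 and 38.4 TPM (219 counts) in apelin 2. Both apelin libraries lay below both controls, with apelin 2 the lowest. The interval of apelin 2 (33.5 to 43.9 TPM) lay below those of control 1 (49.9 to 62.0 TPM) and control 2 (54.3 to 67.3 TPM), whereas that of apelin 1 (43.8 to 56.0 TPM) overlapped both.

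miR-767-5p stood at 35.1 TPM (211 counts) in control 1 and 29.1 TPM (165 counts) in control 2. With apelin it stood at 39.8 TPM (212 counts) in apelin 1 and 30.5 TPM (174 counts) in apelin 2. The groups overlapped, and the library numbered 1 was the higher in each group. Of the intervals, those of control 2 (24.9 to 33.9 TPM) and apelin 1 (34.6 to 45.6 TPM) did not meet.

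**Figure D1:**
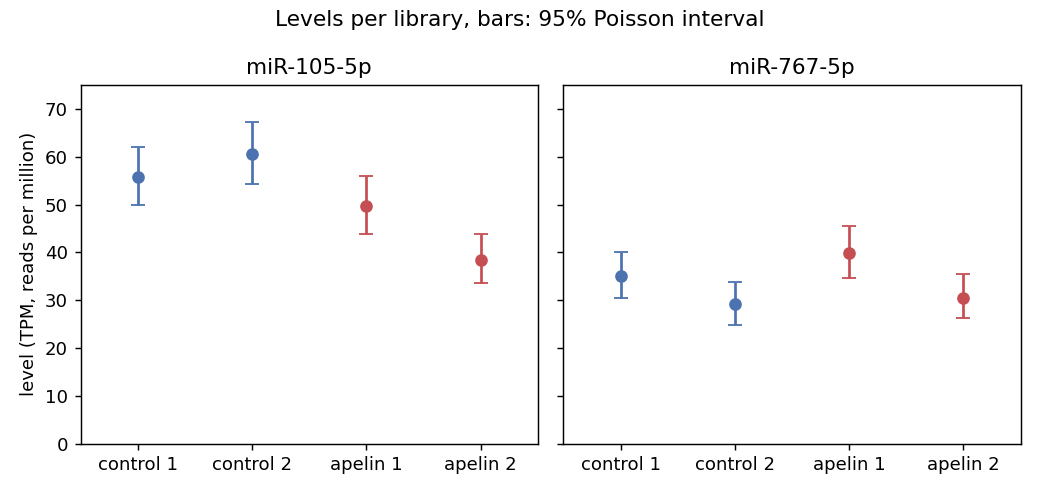
Level of miR-105-5p (left) and miR-767-5p (right) in TPM in each of the 4 libraries (blue, controls; red, apelin), with exact 95% Poisson intervals as bars. miR-105-5p is lower in both apelin libraries (49.6 and 38.4 TPM) than in both controls (55.7 and 60.6 TPM), and miR-767-5p overlaps between the groups.

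Neither miRNA passed the test between apelin and control cells. Over the controls miR-105-5p averaged 58.1 ± 3.4 TPM (SD, n = 2), against 44.0 ± 7.9 TPM (SD, n = 2) over the apelin libraries. Its log2 fold change, apelin minus control, was -0.39 (SE 0.20, 95% interval -1.04 to 0.27, edgeR adjusted p = 0.627), a fold of 0.766 with an interval of 0.486 to 1.21. Over the controls miR-767-5p averaged 32.1 ± 4.2 TPM (SD, n = 2), against 35.2 ± 6.6 TPM (SD, n = 2) over the apelin libraries. Its log2 fold change was 0.14 (SE 0.27, 95% interval -0.72 to 1.00, edgeR adjusted p = 0.871), or -0.03 without control 2 and -0.03 without apelin 1. As a fold this is 1.10, with an interval of 0.609 to 2.00, so both intervals hold a fold of 1 and neither difference was detectable with 2 libraries a group.

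Across the table edgeR's quasi-likelihood test called 0 of 263 tested entries (0%), with 15 at an unadjusted p under 0.05, and DESeq2 called 53 (20.2%). Neither tool called either miRNA; in DESeq2 miR-105-5p had an adjusted p = 0.121 (unadjusted p = 0.0298) and miR-767-5p an adjusted p = 0.781. Of the 263 tested entries, 46 (17.5%) had both apelin libraries below both controls, as miR-105-5p did, so that order of libraries was common. The median log2 fold change of the 207 tested catalogue miRNAs above 0 in every library was 0.012, with quartiles at -0.16 and 0.26. miR-105-5p lay below the lower quartile, with 14 of the 207, itself included, at or under its value.

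**Figure D2:**
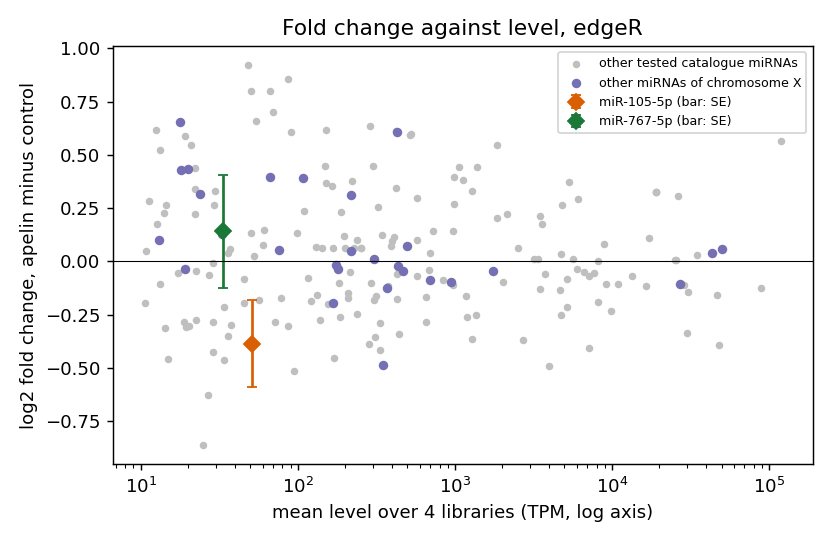
Log2 fold change (apelin minus control, edgeR) against mean level in TPM on a log axis for 207 tested catalogue miRNAs (those with no 0 in any library), with miR-105-5p (orange) and miR-767-5p (green) as diamonds with SE bars and the other miRNAs of chromosome X in purple. Of the diamonds, miR-105-5p lies at -0.39 and miR-767-5p at 0.14, both inside the cloud of points at their level.

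The balance of the pair, which no scaling of the libraries can move, was less tilted to miR-105-5p in both apelin libraries. There were 1.59 reads of miR-105-5p per read of miR-767-5p in control 1 and 2.08 such reads in control 2. The ratio stood at 1.25 in apelin 1, close to the 1.26 of apelin 2. The groups did not overlap, and the controls lay further from each other than the apelin libraries did.

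As a share of the reads of both, miR-105-5p held 61.4% (57.1 to 65.5%) in control 1, 67.5% (63.3 to 71.6%) in control 2, 55.5% (50.9 to 60.0%) in apelin 1 and 55.7% (50.7 to 60.7%) in apelin 2. The interval of control 2 lay above those of both apelin libraries, and that of control 1 overlapped them. The log2 ratio averaged 0.86 ± 0.28 (SD, n = 2) over the controls, against 0.32 ± 0.011 (SD, n = 2) over the apelin libraries. Their difference, -0.54, gave p = 0.333 in an exact two-sided permutation test, the smallest that 2 against 2 libraries can give. Without control 2 the difference was -0.34. The genome holds 2 hairpins for miR-105-5p and 1 for miR-767-5p. Divided by 2 on that account, the ratio ran from 0.623 in apelin 1 to 1.04 in control 2. Whether both miR-105 hairpins are active in these cells was not tested. Nor was it tested, here or below, whether reads of different miRNAs stand for molecules in the same proportion.

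**Figure D3:**
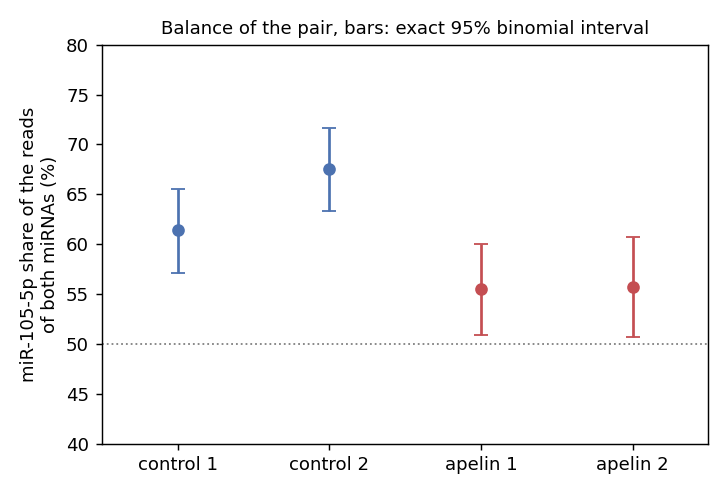
Reads of miR-105-5p as a percentage of the reads of miR-105-5p and miR-767-5p together in each library (blue, controls; red, apelin), with exact 95% binomial intervals as bars (the axis does not start at 0, and the dotted line marks equal numbers of reads). The apelin libraries lie at 55.5 and 55.7%, under the controls at 61.4 and 67.5%.

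The summed level of the pair was 90.8 TPM in control 1, 89.7 TPM in control 2, 89.4 TPM in apelin 1 and 68.9 TPM in apelin 2. The first 3 values lay close together, and apelin 2 stood below them. The groups averaged 90.2 ± 0.76 TPM (SD, n = 2) and 79.2 ± 14.5 TPM (SD, n = 2), with p = 0.333 in the exact two-sided permutation test, again the smallest possible.

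A shifted ratio was also seen in other pairs of neighbouring miRNAs. A comparison added after the members' values were seen took every pair of the 207 catalogue miRNAs above from different hairpins within 10 kb on 1 strand, where all hairpins of each miRNA lie at that place. There were 72 such pairs beside this one, built from 58 miRNAs, so pairs share members. Their log2 ratios differed between the groups by a median of 0.25 in size (range 0.0020 to 0.96), and in 37 of 72 (51.4%) the groups did not overlap. The difference of 0.54 for miR-105-5p and miR-767-5p stood at place 15 of the 73 in size. Of the 207 miRNAs, 11 are named for 1 copy of a mature miRNA and share reads with other copies. Without them the pair of miR-105-5p and miR-767-5p stood at place 9 of 57. The other 56 had a median of 0.24 (range 0.0042 to 0.87), with no overlap between the groups in 44.6%. That set still holds miR-365a-3p (paired with miR-193b-3p), which has the same fold change and mean level as miR-365b-3p.

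Larger differences included miR-19a-3p against miR-92a-1-3p (0.96), from the miR-17 to miR-92 cluster, where miR-92a-1-3p shares reads with a copy on chromosome X. They also included miR-424-3p against miR-450a-5p (0.87), from a cluster on chromosome X that holds miR-503, and miR-106b-5p against miR-93-5p (0.60), which share the host gene MCM7. The adjacent miR-221-3p and miR-222-3p, repressors of the cell cycle inhibitor p27, differed by 0.018. The named pairs other than that of miR-105-5p were picked after their values were seen.

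**Figure D4:**
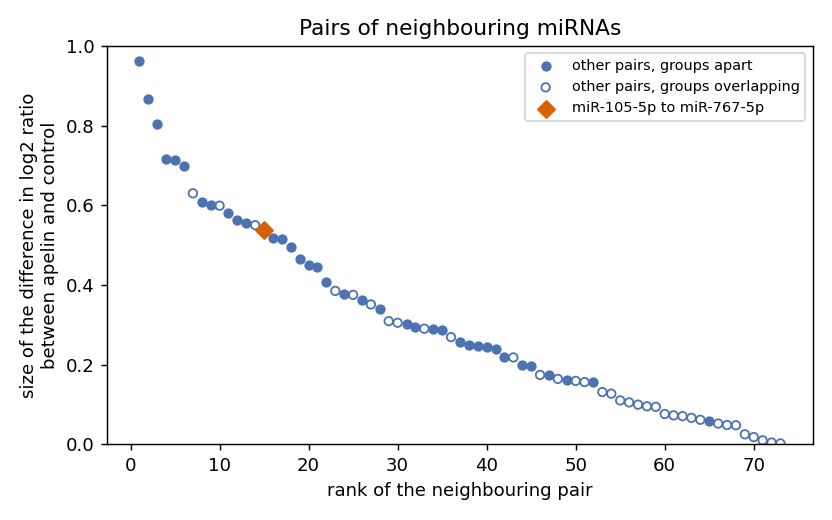
Size of the difference in log2 ratio between apelin and control cells for 73 pairs of neighbouring miRNAs, entries that share reads with another copy included, ranked from the largest, filled where the 2 apelin and 2 control ratios do not overlap and open where they do. The pair of miR-105-5p and miR-767-5p (orange diamond) stands at 0.54, against a median of 0.25 for the other pairs.

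In the order of levels, miR-105-5p was number 161 and miR-767-5p number 174 of the 516 catalogue entries by mean TPM. Within single libraries miR-105-5p ranked 155 to 164 and miR-767-5p 167 to 180, of 358 to 378 catalogue entries above 0. Of the 211 other tested catalogue miRNAs, 27 had ranges over the 4 libraries that overlapped that of miR-105-5p (38.4 to 60.6 TPM), and 146 lay wholly above it. For miR-767-5p (29.1 to 39.8 TPM) 25 overlapped and 159 lay wholly above. The next in level to miR-105-5p included miR-3065-5p (mean 52.4 TPM) and miR-3200-3p (50.5 TPM), which do not differ from it beyond their spread. The red cell miRNA miR-486-5p (33.7 TPM) and miR-450b-5p (33.0 TPM) stood beside miR-767-5p in the same way. The other neighbours by mean included miR-3615 and miR-941, each above 0 in 1 library only, so their means do not describe a level.

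The members were not the nearest to each other in pattern. Likeness was the root mean square difference of log2(TPM + 1) over the 4 libraries, after each miRNA was centred on its own mean, and small values are near. The distance between the members was 0.30, which put miR-767-5p at place 119 of 212 tested catalogue miRNAs from miR-105-5p, and miR-105-5p at place 148 from miR-767-5p. The 5 nearest to miR-105-5p were miR-1269a (0.040), let-7c-5p (0.045), miR-424-3p (0.056), let-7d-5p (0.067) and miR-181b-5p (0.071). For each of these both apelin libraries also lay below both controls, an order that 17.5% of all tested entries had. These 5 were chosen for their likeness to miR-105-5p over the same libraries, so the shared order largely follows from the choice. miR-1269a, for example, measured 307 TPM in control 1 and 338 TPM in control 2, against 265 TPM in apelin 1 and 222 TPM in apelin 2. The 5 nearest to miR-767-5p were miR-339-5p (0.058), miR-423-3p (0.067), miR-139-5p (0.069), miR-502-3p (0.072) and miR-1292-5p (0.077). Each of these overlapped between the groups, as miR-767-5p did, which the choice by pattern likewise favoured.

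The seed of miR-105-5p, CAAAUGC, was shared with 1 other of 2370 human mature miRNAs of RefSeq, miR-7853-5p, and with no other miRNA of the table that has a sequence (465 of 516 matched). The seed of miR-767-5p, GCACCAU, was its own, but miR-29a-3p and miR-29c-3p carry the same 7 bases 1 position further from the 5′ end. They are shown with those bases in capitals, because miR-29 also represses TET enzymes and collagens.
miR-767-5p: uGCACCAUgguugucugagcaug
miR-29a-3p: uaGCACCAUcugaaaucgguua
miR-29c-3p: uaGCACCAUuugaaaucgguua

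In these cells miR-29a-3p was by far the most abundant of the 3 carriers of that stretch found among the 465 catalogue entries with a sequence. No entry for miR-29b-3p was among these, so it is not counted here. Per read of miR-767-5p, control 1 held 650 reads of miR-29a-3p and control 2 held 847, while apelin 1 held 700 and apelin 2 held 982. miR-767-5p made up 0.102 to 0.153% of the reads of the 3 miRNAs together. miR-29c-3p was close to miR-767-5p in control 1 (32.8 TPM) and control 2 (35.3 TPM), with 49.98 TPM in apelin 1 and 76.3 TPM in apelin 2. It did not pass in edgeR, with 0.92 as log2 fold change (SE 0.34, adjusted p = 0.627), while DESeq2 gave an adjusted p = 0.0499. For miR-29a-3p the log2 fold change came to 0.31 (SE 0.092, edgeR adjusted p = 0.627).

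Letters complementary to the seeds were counted in the longest annotated 3′ UTR of each target (GENCODE 29, GRCh38) on the sense strand. The 7 letters for miR-105-5p, GCATTTG, occurred 4 times in TJP1 and 0 times in TET1 and TET3. They occur in 14.9% of 19113 genes, and in 19.1% of those with a 3′ UTR within 10% of the length of that of TJP1. The letters for miR-767-5p, ATGGTGC, occurred 2 times in TET1, 3 times in TET3, and 0 times in TET2 and TJP1. They occur in 9.07% of all genes, and in 14.9% and 26.2% of those with a 3′ UTR near TET1 and TET3 in length. The letters for miR-29, TGGTGCT, which overlap these by 6, occurred 3 times in TET1, 1 time in TET2, 10 times in TET3 and 0 times in TJP1. They occur in 14.4% of all genes. Among genes with a 3′ UTR near TET1, TET2 and TET3 in length the shares were 24.4%, 37.3% and 39.8%. The match nearest the stop codon in each gene is shown in its surroundings, with the letters in capitals; a match is a description and was not measured here as a site.
TJP1, chr15:29701462-29701491, minus strand: tttgttagtatgagGCATTTGtttgaactg
TET1, chr10:68692250-68692279, plus strand: tgaattattatttcATGGTGCcattgttcc
TET3, chr2:74103245-74103274, plus strand: gtggtgctctgtgcATGGTGCtgtgcggag

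Of 9 tested entries on a list of miRNAs reported to repress TET enzymes, 0 were called by edgeR (0% of all tested entries) and 2 by DESeq2 (miR-22-3p, adjusted p = 0.0251, and miR-29c-3p), which called 20.2% of all tested entries. As a median, the list stood at 0.31 in log2 fold change, against 0.012 for the 207 catalogue miRNAs above; without apelin 2 the list's median was 0.15. Both apelin libraries lay above both controls in 5 of the 9, where 20.9% of all tested entries had this order (55 of 263). These were miR-29a-3p, miR-29c-3p, miR-22-3p and the entries miR-101-3p and miR-101-2-3p. The last 2 share reads, yet both count among the 9 in the median and in this order. The most abundant of the list, miR-125b-5p, came to -0.16 (SE 0.14) on the log2 fold change scale, with miR-26a-5p at -0.066 (SE 0.18) and miR-26b-5p at 0.012 (SE 0.27). miR-767-5p itself lay in neither order.

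miR-105 is 1 of several secreted miRNAs reported to loosen the vessel barrier. Of 5 tested entries for the others, of which miR-103a-1-3p and miR-103a-2-3p stand for the same mature miRNA and share reads, 0 were called by edgeR (0% of all tested entries) and 0 by DESeq2 (20.2% of all). Their median log2 fold change was 0.0082, against 0.012 for the 207, and it changed sign with the library left out: it was -0.17 without apelin 2, -0.089 without control 2 and 0.11 without apelin 1. With all libraries the entries ran close to 0, with miR-23a-3p at 0.029 (SE 0.063), miR-103a-1-3p at 0.0082 (SE 0.14) and miR-25-3p at -0.057 (SE 0.091). miR-23a-3p stood at 32678 to 36867 TPM over the libraries and miR-181c-5p at 158 to 227 TPM, all above the 60.6 TPM that was the highest level of miR-105-5p.

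Few of the other X-linked miRNAs of the male germ line had an entry, and those that did were at or near 0. Of 30 names from the miR-506 to miR-514 and miR-888 to miR-892 clusters, 2 matched an entry: miR-891a-5p with 7 counts in control 1 and 0 elsewhere, and miR-509-3-3p with 5 counts in apelin 2 and 0 elsewhere. Of 24 names from the embryonic and placental miR-302, miR-371 and C19MC clusters, 0 matched. A name without an entry has no measured level here. On the same chromosome arm, GABRE, another GABA-A receptor gene, hosts miR-224 and miR-452. miR-224-5p measured 9.81 TPM in control 1, 15.5 TPM in control 2, 13.5 TPM in apelin 1 and 13.2 TPM in apelin 2, and miR-452-5p did not exceed 4.66 TPM in any library.

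Beside the members, 40 catalogue entries had hairpins on chromosome X alone, and 28 of them were tested. None of the 28 was called by edgeR (0% of all tested entries), and 2 were called by DESeq2 (20.2% of all): miR-424-3p (adjusted p = 0.00657) and miR-19b-2-3p (adjusted p = 0.0251). The entries miR-19b-2-3p and miR-92a-2-3p share reads with copies on chromosome 13. The median log2 fold change of the 28 was 0.044, with 16 positive and 12 negative; it was 0.0081 without apelin 2, 0.0074 over the 19 with at least 100 TPM and 0.0013 with upper-quartile scaling. Both apelin libraries lay below both controls in 1 of the 28, miR-424-3p (log2 fold change -0.49, SE 0.15, edgeR adjusted p = 0.627), and above them in 7, against 17.5% and 20.9% of all tested entries. The most abundant were miR-222-3p, at 0.058 (SE 0.050), and miR-221-3p, at 0.041 (SE 0.078).

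Markers of cell types were read beside these results. The epithelial miR-205-5p and miR-200c-3p were present and lay, like miR-105-5p, lower in both apelin libraries. That order held in 17.5% of all tested entries. DESeq2 called both (adjusted p = 0.0129 and 0.0376), as it did 20.2% of all tested entries, and edgeR called neither (adjusted p = 0.627 for each). The 3 matched epithelial markers summed to 130 TPM in control 1, 131 TPM in control 2, 107 TPM in apelin 1 and 95.2 TPM in apelin 2. Other epithelial miRNAs of the miR-200 family, outside the marker list and more abundant, did not share one order. On the log2 fold change scale miR-200a-3p (mean 988.5 TPM) came to 0.27 (SE 0.22), with both apelin libraries above both controls, miR-200b-3p (6635 TPM) to -0.048 (SE 0.070), with both below, and miR-429 (396 TPM) to 0.096 (SE 0.28), with the groups overlapping. The part of epithelial markers in the result for miR-105-5p was not tested.

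Of 5 blood markers 2 matched. miR-486-5p, of red cells, measured 35.7 TPM in control 1, 37.1 TPM in control 2, 33.8 TPM in apelin 1 and 28.2 TPM in apelin 2. Both apelin libraries thus lay below both controls as for miR-105-5p (log2 fold change -0.21, SE 0.20, edgeR adjusted p = 0.688). Of all tested entries, 17.5% had this order. miR-223-3p, of myeloid cells, was at 0 in control 2 and apelin 2 and at 3.33 and 2.07 TPM in control 1 and apelin 1. The summed level of both was 39.1, 37.1, 35.9 and 28.2 TPM in the same order of libraries, and its part in the result was not tested. Of 9 germ cell and testis markers 1 matched an entry, the miR-509-3-3p above, at 0.88 TPM in apelin 2 and 0 in the other libraries. The endothelial miR-126-3p stood at 6.32 to 13.7 TPM. Of 2 neuronal markers 1 matched, and miR-124-3p had no entry. The matched miR-9-5p stood at 298 TPM in control 1, 299 TPM in control 2, 300.1 TPM in apelin 1 and 399 TPM in apelin 2. Both apelin libraries thus lay above both controls, apelin 1 by about 1 TPM (log2 fold change 0.26, SE 0.23, edgeR adjusted p = 0.688). This order held in 20.9% of all tested entries, and the part of miR-9-5p in the results was not tested. The matched muscle markers summed to at most 2.63 TPM in a library, and the stromal one stayed below that.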

How the data were processed

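Small RNA of PC-3 cells was sequenced in 2 control and 2 apelin libraries, grouped by sample title. The submitters' processing notes name Trimmomatic 0.30 and DESeq2. Neither aligner, counter, miRNA catalogue nor genome build is given in the sources used here. Whole-number read counts and TPM values per mature miRNA were deposited by the authors, with a length in nt as another value. The deposited TPM values of both members equal counts per 1000000 of the library total within 0.0044. No value column went unmatched (0).

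Counts of entries with a mean of at least 10 TPM (53.2 to 60.1 counts) were tested with edgeR 4.0.16 (TMM scaling, quasi-likelihood test, Benjamini-Hochberg adjustment over 263 entries, threshold 0.05). The test draws its estimate of spread from all 263 entries as well as from each one. Each SE is the absolute log2 fold change divided by the root of F, and intervals use it. DESeq2 1.42.0, limma 3.58.1 on log2(TPM + 1) with pseudocounts of 0.1 and 10, other filters and scalings, a replicate block and leaving out each library were alternatives; upper-quartile scaling was added after seeing the data. On counts simulated for the 207 catalogue miRNAs above 0 in all libraries, edgeR recovered 100% of 40 miRNAs changed 4-fold in each of 10 runs, with at most 3 false calls. Smaller changes were not simulated. Every simulated miRNA had the same spread, estimated from these 207. The fit over 263 entries had a common coefficient of variation of 0.92, so the simulation does not measure the power of that fit. Ratios were tested by exact permutation (scipy 1.17.1). R 4.3.3 and Python 3.11.15 were used.

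A hairpin gene was found for 512 of 516 catalogue entries and a RefSeq mature sequence for 465. The members and lists were chosen with earlier results of these data known. Named miRNAs are the members, for each the 5 nearest in pattern and the 2 next above and below in level, up to 4 tested miRNAs of each list by abundance, and those sharing at least 6 seed bases. miR-22-3p, miR-101-3p, miR-181c-5p, miR-452-5p, miR-19b-2-3p, miR-200a-3p, miR-200b-3p, miR-365b-3p, miR-429, the pairs and the markers were named after their values were seen.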

Additional observations from a re-analysis of the deposited data

How the results depend on the processing

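miR-105-5p kept a negative log2 fold change in all 15 alternatives that gave it a value (-0.55 to -0.31) and was called in none. The constant sign largely follows from the order of its libraries, with both apelin libraries below both controls. miR-767-5p was positive in 13 of 15 and was never called; leaving out a library gave -0.03 to 0.29, and it was negative without control 2 (-0.0303) and without apelin 1 (-0.028), where fewer samples remain. With a minimum of 100 TPM neither member was tested. The difference in log2 ratio ran from -0.73 (without control 1) to -0.34 (without control 2) and had no test with a library left out; it was -0.54 or -0.52 with a pseudocount of 1 or 10 counts. The count of called entries, 0 in edgeR, was 53 in DESeq2, 4, 5 and 4 in limma with pseudocounts of 1, 0.1 and 10, 52 with no filter, 4 at 100 TPM, 4 with upper-quartile scaling and 0 to 19 with a library left out; the cause was not tested. With the replicate block it was 0 (50 at an unadjusted p under 0.05), miR-105-5p -0.39, miR-767-5p 0.15 and the ratio -0.54. For the ratio the exact permutation test within blocks gave p = 0.5, the smallest it can give here. No label says that a number marks a shared culture or day, and the deviations of same-numbered libraries from their group means had a correlation of 0.318 across 207 miRNAs. At 165 to 343 counts a member, depth limits the precision of each library.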

Other observations

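The length listed for a miRNA was not always that of its RefSeq sequence. miR-105-5p is listed at 22 nt and miR-767-5p at 24 nt, while both RefSeq sequences have 23. Over the 465 catalogue entries with a sequence, the lengths were equal in 224 and within 1 nt in 409.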
